A study of Mus musculus with 4 samples.

Results

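Prostanoids are short-lived lipids made from arachidonic acid by cyclooxygenases and terminal synthases, and they act on the cell that makes them or on its neighbours through a family of G-protein-coupled receptors. EP2, EP4, IP and DP1 couple to Gs and raise cyclic AMP, which relaxes smooth muscle. EP1, FP and TP act mainly through Gq and calcium and contract it, and EP3 couples mainly to Gi. The array measured the 8 genes of this family, Ptger1 to Ptger4 for the receptors EP1 to EP4 of prostaglandin E2 (PGE2), Ptgfr for FP, the receptor of prostaglandin F2 alpha, Ptgir for IP, the prostacyclin receptor, Tbxa2r for TP, the thromboxane receptor, and Ptgdr for DP1, a prostaglandin D2 receptor. They were taken by gene symbol from the deposited signal table, which gave 14 probes of 56605 on the array and 8 genes of 27278 with a symbol.

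The cells were vascular smooth muscle cells grown from explants of adult mouse aorta, of strain C57BL/6J and genotype EP4-Tg. All 4 cultures carried that genotype. Of these, 2 were controls left untreated for 24 h, with no vehicle named, and 2 were given PGE2 for 24 h, with 1 array each. The labels call them biological replicates without saying whether they came from separate animals, so p-values measure only the spread between these cultures. The labels give neither the dose of PGE2 nor the promoter, receptor part or species of the EP4 transgene, so the Ptger4 probes below need not read it.

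Between 47.9% and 53.8% of spots on each array were well above background by the scanner software's own call, and 0 spots were saturated. Of 9 smooth muscle markers, 4 were above background on all 4 arrays (Acta2, Tagln, Cnn1 and Smtn), Myh11 was on 2 and Myocd on 0. The summed signal of that list was 243800 to 363100 in control and 77650 to 108000 with PGE2. Acta2 and Tagln made up most of that sum, at log2 changes of -2.10 and -1.79 (adjusted p = 0.152 and 0.134, limma). Cnn1 stood at -2.26 and Smtn at -0.33 (adjusted p = 0.338 and 0.644, limma), and Des, near background, at 0.67. Among adventitial fibroblast markers 5 of 6 were above background on all arrays, with sums of 54870 to 102700 in control and 27590 to 32160 with PGE2, and Dpt on 0. Dcn made up most of that sum, while Ly6a was higher with PGE2, at a log2 change of 4.20 (limma, adjusted p = 0.0438), and Pi16 stood at 2.78, Pdgfra at 0.60 and Lum at -2.17. Leukocyte markers were also above background in 5 of 6 cases, including Ptprc, Itgam and Csf1r, with sums of 37700 to 38950 in control and 24740 to 35520 with PGE2, while the macrophage marker Adgre1 was on 0. Itgam, at -0.61, made up most of that sum, while Cd68 stood at 2.09, Csf1r at 0.98, Ptprc at -0.36 and Cd3e at -0.12. Endothelial markers were near background, with Pecam1 alone of 6 above it on all arrays, Tek and Emcn on 0, and sums of 134.9 to 235.7 in control and 107 to 177 with PGE2. Kdr, at 151.3 on control 1 and 5.09 to 9.91 on the other arrays, made up most of the highest of these sums. Of 4 mesothelial markers 2 were above background on all arrays, with sums of 6389 to 7805 in control and 6678 to 7535 with PGE2, nearly all from Msln, and Wt1 on 0. Krt19, the other one above background, stood at -2.45 (adjusted p = 0.0618, limma). The part of these cell type differences in the receptor values was not tested, and in bulk RNA fewer cells of a type and less RNA per cell cannot be told apart.

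The receptor genes were dim in these cells. Of the 14 probes, 9 were above background on no array, 5 on at least 1 array and 0 on all 4, and 4 of the 8 genes had no probe above background anywhere (Ptger1, Ptger2, Ptgir and Ptgdr). On the whole array, 43.2% of probes were above background on no array and 41.3% on all 4, and 37.4% of genes with a symbol had no probe above it on any array. A gene was tested when both arrays of a group, control or PGE2, had a probe of it well above background, which 52.5% of genes with a symbol met. In the family 3 genes met it: Ptger4, Ptgfr and Tbxa2r. A lack of signal here sets no level, since it says only that these probes did not rise above background.

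**Figure D1:**
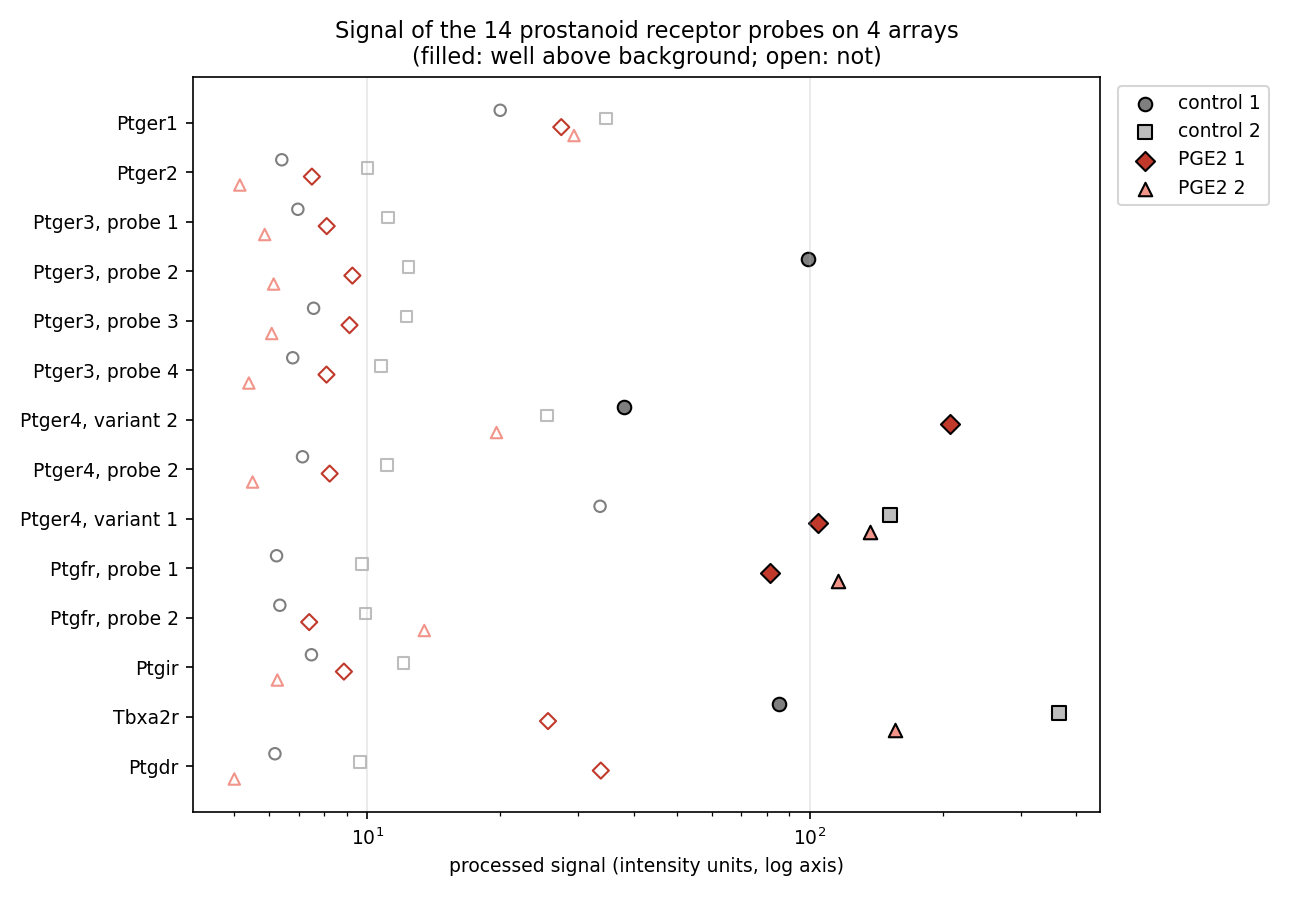
Processed signal (intensity units, log axis) of each of the 14 probes on the 2 control arrays (grey) and the 2 PGE2 arrays (red), filled where the spot was well above background and open where it was not. Most open points lie near a common value of each array, and the Ptgfr probe with filled points has them on both PGE2 arrays and on no control array.

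The start regions of the 3 tested genes are shown because these are the receptors with enough signal to compare. They are RefSeq windows on build GRCm38.p6, each of 300 bases, 250 before and 50 after the annotated start, printed 5′ to 3′ on the strand of the gene. Windows were held for 7 of the 8 genes. Capitals mark exact matches, on either strand, to the motifs searched: the cyclic AMP response element TGACGTCA, its core TGACG, the AP-1 site TGANTCA, the Sp1 GC box GGGCGG and the CCAAT box CCAAT. The core also lies within the full response element.
Ptgfr (chr3:151837479-151837778, minus strand): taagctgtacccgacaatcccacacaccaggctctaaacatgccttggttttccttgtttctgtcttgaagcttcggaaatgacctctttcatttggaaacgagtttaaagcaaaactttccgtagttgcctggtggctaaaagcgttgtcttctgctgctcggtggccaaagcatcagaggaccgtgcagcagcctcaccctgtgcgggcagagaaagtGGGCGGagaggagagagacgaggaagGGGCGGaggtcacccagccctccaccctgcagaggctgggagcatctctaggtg
Ptger4 (chr15:5244138-5244437, minus strand): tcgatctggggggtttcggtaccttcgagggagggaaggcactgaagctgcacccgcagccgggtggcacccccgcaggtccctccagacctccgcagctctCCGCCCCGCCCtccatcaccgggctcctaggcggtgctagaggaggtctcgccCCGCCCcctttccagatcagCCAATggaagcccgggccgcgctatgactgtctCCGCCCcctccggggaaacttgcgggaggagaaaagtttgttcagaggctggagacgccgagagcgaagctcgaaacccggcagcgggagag
Tbxa2r (chr10:81328453-81328752, plus strand): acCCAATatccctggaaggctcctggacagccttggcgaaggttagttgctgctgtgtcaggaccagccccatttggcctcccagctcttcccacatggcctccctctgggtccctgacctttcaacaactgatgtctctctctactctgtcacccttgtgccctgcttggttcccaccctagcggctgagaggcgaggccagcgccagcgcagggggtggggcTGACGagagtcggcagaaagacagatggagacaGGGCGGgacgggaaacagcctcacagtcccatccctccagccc
The Ptgfr window held 2 GC boxes, and the Ptger4 window held 4, of which 2 overlap, and 1 CCAAT box. The Tbxa2r window held the only response element core found in the family, beside 1 GC box and 1 CCAAT box, while the window of a second Tbxa2r start held none of the motifs. The full response element and the AP-1 site were in none of the 8 windows of the family. Among all 32851 windows of this length, 1.79% held the full element, 20.8% the core, 7.81% the AP-1 site, 35.7% the GC box and 37.4% the CCAAT box. These are matches of letters and show no binding.

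Ptgfr, which encodes the Gq-coupled FP receptor, was well above background on both PGE2 arrays and on neither control array. It is gene 19220 in cytoband 3qH3 and had 2 probes. The processed signal of the probe on its reference transcript was 6.24 and 9.74 on control arrays 1 and 2 and 81.3 and 115.8 on PGE2 arrays 1 and 2. Both PGE2 arrays lay above both control arrays, and the groups did not overlap. The error that the scanner software gives for each spot was 6.27 and 9.79 for the controls, as large as their signals, and 10.8 and 12.6 for the PGE2 arrays. Before any correction the spot medians were 51 and 57.5 in control against a local background of 43 and 41, and 150.5 and 164 with PGE2 against 44.5 and 35.

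The control spots were not well above background, so only an approximate bound on the Ptgfr difference was measured. The mean of the PGE2 arrays was 2.25-fold that of the dimmest signals well above background on the control arrays. Both were means on a log2 scale relative to each array's 75th percentile. On this scale the Ptgfr difference was thus at least 2.25-fold if the control levels lay no higher than those dimmest signals. That limit is not strict, because spots without the call can be brighter. On PGE2 array 2 the Ptger1 spot, at 29.3, lacked the call, while the dimmest signal with it was 25.2. The fitted log2 values averaged -6.15 ± 0.29 in control and -2.66 ± 0.32 with PGE2 (SD, n = 2 each). The fitted change was 3.49 ± 0.26 (SE), with an adjusted p = 0.0464 (limma, Benjamini-Hochberg over 17661 tested genes or unnamed probes). That fit takes the control values as they stand, and its p rests on the spread of 2 control signals no larger than their own errors. Ptgfr also entered the test only through its PGE2 arrays, so a probe like it had to differ, and the call adds no support beyond the bound. Of the 3 receptors tested, 1 was thus past the threshold, where 0.668% of all tested genes were called in either direction, 0.396% as higher and 0.272% as lower. Its groups were the only ones of the 3 that did not overlap, which 52.3% of tested genes showed, 24% as higher.

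The Ptgfr call sat near the threshold, with adjusted p values of 0.0369 to 0.214 over 13 alternative settings. Without control replicate 1 it was 0.144 and without control replicate 2 it was 0.107 (limma), and with normexp correction of the spot medians the change was 1.00 with an adjusted p = 0.0611. The other Ptgfr probe, on an Ensembl transcript, stayed dim on all 4 arrays, at 6.35 and 9.91 in control and 7.40 and 13.5 with PGE2. In that probe the PGE2 arrays lay on both sides of control 2. Across the array, 41.5% of the 8479 genes with 2 or more probes and a tested probe had at least 1 probe above background nowhere. Genes with many probes count in that share, so it is not the rate for genes with 2 probes. The detection pattern of the first probe, above background on both PGE2 arrays and on no control array, was shared by 1.26% of all probes, and the opposite pattern by 0.351%.

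**Figure D2:**
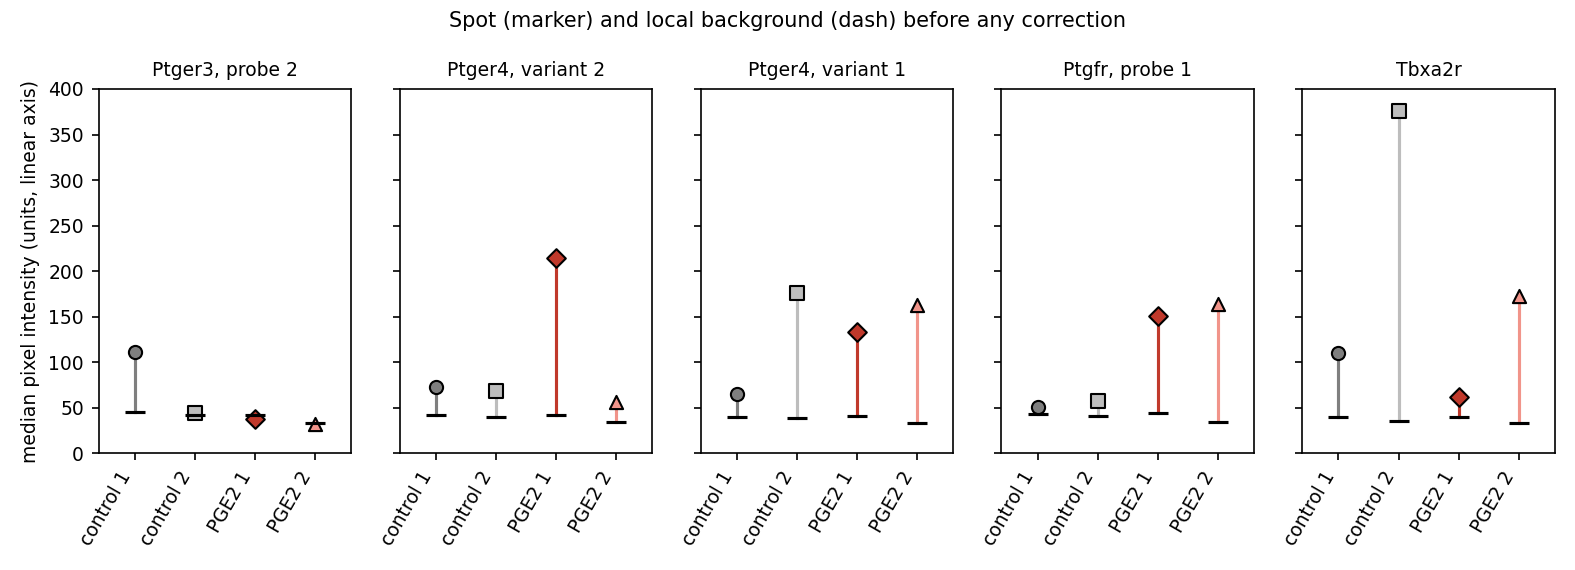
Median pixel intensity of the spot (marker) and of its local background (dash), before any correction, for the 5 probes above background on at least 1 array, by array (linear axis). The Ptgfr spots stood clear of their background on both PGE2 arrays, and the Ptger3 spot on control 1 only. Both Ptger4 probes were bright on PGE2 1, while on control 2 and PGE2 2 only the variant 1 probe was.

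Ptger4 encodes EP4, the Gs-coupled receptor whose transgene names the genotype, and its probes did not give 1 pattern. It is gene 19219 in cytoband 15qA1 and had 3 probes. The probe for transcript variant 1, used for the test, gave processed signals of 33.6 and 152.2 in control and 104.3 and 137.1 with PGE2. Control 1 stood apart as low and was the only array where this probe was not above background, while control 2 was the highest of the 4, so the groups overlapped. The software's spot errors, 8.20 and 19.4 in control and 13.7 and 14.9 with PGE2, were smaller than the gap between the control cultures.

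The fitted log2 change of Ptger4 was 0.59 ± 0.70 (SE), with a 95% interval of the limma fit from -1.33 to 2.51 and an adjusted p = 0.696 (limma). The mean log2 values were -2.95 ± 1.38 in control and -2.36 ± 0.24 with PGE2 (SD, n = 2 each). Leaving out control replicate 1 gave -0.38, and leaving out control replicate 2 gave 1.56. The interval holds both a fall and a rise of over 1 on the log2 scale, so these arrays do not show whether the level moved.

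The Ptger4 probe for transcript variant 2 was bright on PGE2 array 1, at 207.2, and lower elsewhere, at 38.1 and 25.5 in control and 19.6 on PGE2 array 2. It was above background on control 1 and PGE2 1, the pattern of 0.404% of all probes, and so was not tested. The 2 variant probes thus ranked the PGE2 arrays in opposite order, and variant 1 was lower on control 1 where variant 2 was lower on control 2. The third probe, on an Ensembl transcript, was dim throughout, at 7.14 and 11.1 in control and 8.23 and 5.51 with PGE2. The labels do not say which probe, if any, reads the transgene.

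The other receptors of PGE2 gave no tested value. Ptger1, the gene of the calcium-coupled EP1 (gene 19216, cytoband 8qC2), had signals of 19.98 and 34.6 in control and 27.5 and 29.3 with PGE2, with both PGE2 arrays between the controls. It was well above background on 0 arrays but passed the software's weaker call, positive and significant, on all 4, and its spot median exceeded the local background on each, from 50 against 43 on control 1 to 64 against 31 on PGE2 2. Ptger2, which encodes EP2, the other Gs-coupled PGE2 receptor (gene 19217, cytoband 14qC1), gave 6.41 and 10.0 in control and 7.50 and 5.16 with PGE2. Its spot medians lay below the local background on all 4 arrays, at 37 against 50 and 33.5 against 47 in control and at 44 against 54 and 31 against 41 with PGE2.

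Ptger3, the gene of the Gi-coupled EP3 (gene 19218, cytoband 3qH4), had 4 probes, of which 3 were above background nowhere and ranged from 5.40 to 12.3. The fourth probe, on an Ensembl transcript, gave 99.1 on control 1 and 12.4, 9.26 and 6.15 on control 2, PGE2 1 and PGE2 2. That spot had a median of 111 against a local background of 46 and carried no outlier flag. A signal above background on control 1 alone was found in 1.73% of all probes, and with no second control array like it Ptger3 was not tested.

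Tbxa2r, which encodes the Gq-coupled thromboxane receptor TP (gene 21390, cytoband 10qC1), varied widely within both groups. Its single probe, on transcript variant 1, gave 85.1 and 365.0 in control and 25.6 and 155.6 with PGE2. Control 2 was the highest, PGE2 1 was the lowest and the only array not above background, and PGE2 2 lay between the controls. The mean log2 values were -1.65 ± 1.32 in control and -3.28 ± 1.80 with PGE2 (SD, n = 2 each). The fitted change was -1.63 ± 1.11 (SE), with a 95% interval from -4.66 to 1.40 and an adjusted p = 0.502 (limma). It was -0.36 without PGE2 replicate 1, -0.70 without control replicate 2, -2.57 without control replicate 1 and -2.91 without PGE2 replicate 2.

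**Figure D3:**
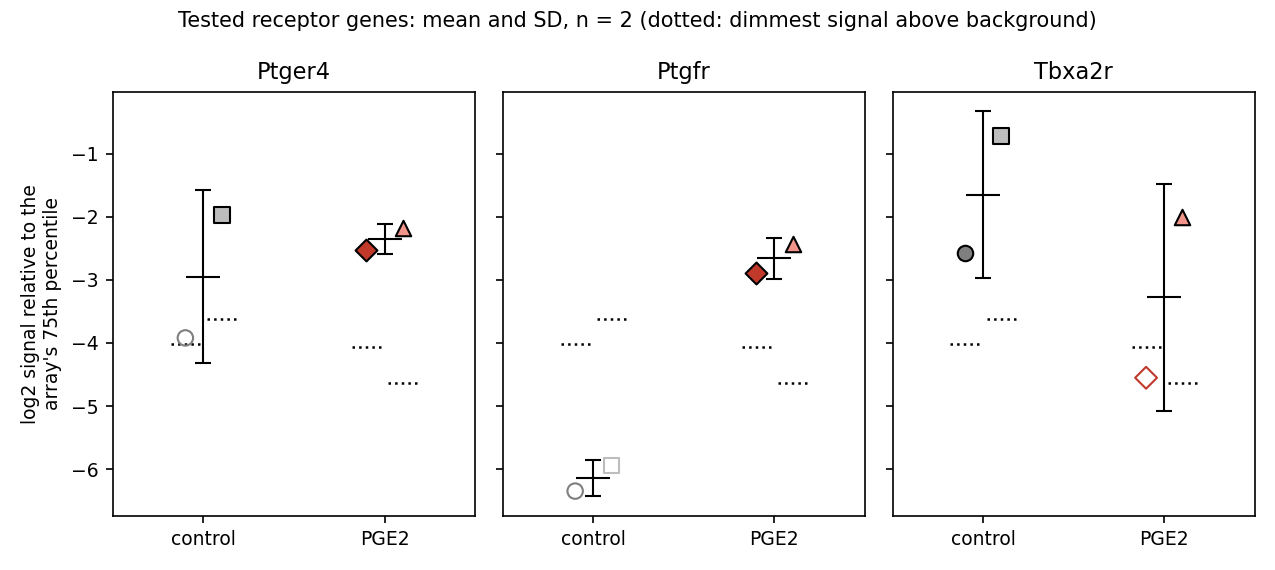
Log2 signal relative to each array's 75th percentile for the tested probe of Ptger4, Ptgfr and Tbxa2r, by group, with the mean and SD (n = 2), filled where the spot was well above background and with the dimmest signal well above background on each array dotted. The groups are apart in Ptgfr, where both control points lie under the dotted lines, and overlap in Ptger4 and Tbxa2r.

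The 2 remaining Gs-coupled receptors were not above background. Ptgir, the gene of the prostacyclin receptor IP (gene 19222, cytoband 7qA2), gave 7.48 and 12.1 in control and 8.86 and 6.27 with PGE2. Ptgdr, the gene of DP1 (gene 19214, cytoband 14qC1), gave 6.19 and 9.63 in control and 33.7 and 5.01 with PGE2. The signal of 33.7 on PGE2 1 was just under the dimmest signal called well above background on that array, 35.7. Neither gene had groups that stood apart.

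Most of the dim values carry no biological order. Among the 24357 probes above background on no array, the middle 50% lay at 6.78 to 7.69 on control 1, 10.7 to 12.2 on control 2, 7.98 to 9.14 on PGE2 1 and 5.45 to 7.41 on PGE2 2. After scaling, these probes differed by a median of -0.52 between the groups. The single Ptger2 and Ptgir probes, the 3 dim Ptger3 probes and the third Ptger4 probe differed by -0.50 to -0.55, beside that median. Ptger1, at -0.04, the second Ptgfr probe, at 0.18, and Ptgdr, at 0.60, did not follow it, each through values above the common one.

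**Figure D4:**
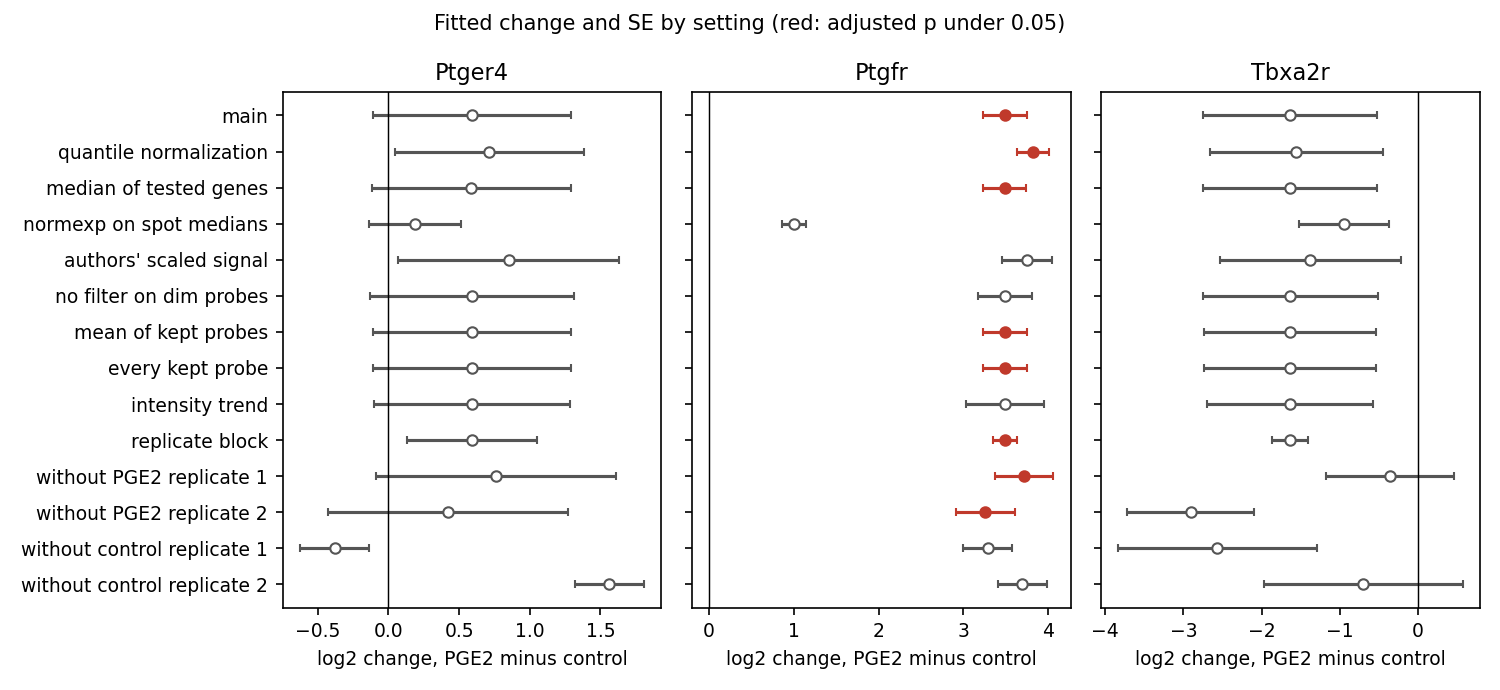
Fitted log2 change (PGE2 minus control) with its SE for the 3 tested receptor genes under the main setting and 13 alternatives, red where the adjusted p was under 0.05. Ptgfr, whose probe was above background on the PGE2 arrays alone, stayed above 0 in each, with its smallest value of 1.00 after normexp correction. Tbxa2r stayed below 0, and Ptger4 crossed 0 without control replicate 1.

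For each tested receptor the nearest genes were sought by the distance between mean-centred log2 values over the 4 arrays, among 12605 named genes. With 4 arrays such closeness is a description of these libraries. Nearest to Ptgfr were Krtap19-2, a keratin-associated protein gene, at a distance of 0.0258, Fshb, the follicle-stimulating hormone beta subunit gene, at 0.267, and Lcp1, which encodes the leukocyte actin-bundling protein L-plastin, at 0.303. Nearest to Ptger4 were D8Ertd158e at 0.119, the chloride transporter gene Slc12a5 at 0.192 and the Notch coactivator gene Maml3 at 0.303. Nearest to Tbxa2r were Gchfr, which encodes a regulator of GTP cyclohydrolase, at 0.163, the protein kinase A subunit gene Prkar1b at 0.401 and the YAP-binding transcription factor gene Tead4 at 0.426.

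The genes that make, move and break down the ligands gave 15 tested of 18, beside 3 of the 8 receptors. By limma 0 were called, against 0.668% of all tested genes, and 5 had an unadjusted p under 0.05, against 17.8%. Their median log2 change was 0.07, beside -0.03 for all tested genes. Slco2a1, the prostaglandin uptake transporter gene, had signals of 6982 and 4487 in control and 1563 and 1399 with PGE2, a change of -2.07 ± 0.35 (adjusted p = 0.105, limma). Ptgis, the prostacyclin synthase gene, stood at -1.43 ± 0.30 (adjusted p = 0.142), and Abcc4, which encodes an exporter of prostaglandins and cyclic AMP, at 0.87 ± 0.18 (adjusted p = 0.14). A further Ptgis probe stood at 0.10. In these 3 genes, chosen as those with the smallest p, the groups did not overlap, which held for 52.3% of all tested genes. The 3 untested genes, Hpgd, Hpgds and Tbxas1, which encode a prostaglandin-degrading dehydrogenase, a prostaglandin D2 synthase and thromboxane synthase, were above background nowhere.

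Among the transducers of the receptors, which are G-protein subunits, arrestins and receptor kinases, 20 of 23 genes were tested, with a median log2 change of 0.02. By limma 0 were called, against 0.668% of all tested genes, and 2 had an unadjusted p under 0.05, against 17.8%. The smallest p belonged to Gnal, which encodes a Gs-like alpha subunit, at -1.20 ± 0.31 (adjusted p = 0.186, limma), then to Gnao1 at 0.48 ± 0.17 and Gng12 at 0.71 ± 0.29 (adjusted p = 0.275 and 0.318). Of the cyclic AMP response genes, 18 of 20 were tested, with a median log2 change of 1.43. Where 0.668% of all tested genes were called, 0.396% as higher, limma called 2 of the 18. These were the phosphodiesterase genes Pde4b, at 2.32 ± 0.19, and Pde4d, at 2.71 ± 0.24 (both adjusted p = 0.0464), which rose. Of 5 tested Pde4d probes, 1 stood at -0.94 and 4 at 1.97 to 3.04. In 11 of the 18 both PGE2 arrays lay above both control arrays, which held for 24% of all tested genes, and in 1 both lay below, which held for 28.3%. This list was drawn up with earlier results of these data known, so its direction is no independent evidence.

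**Figure D5:**
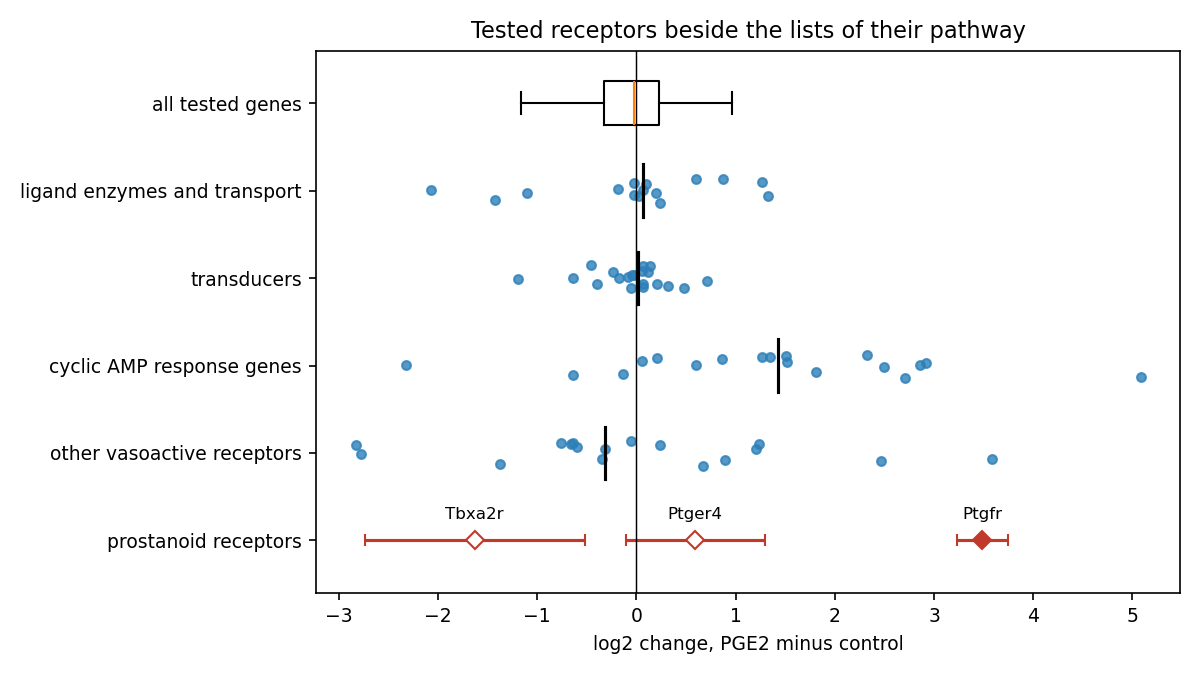
Log2 change (PGE2 minus control) of all 17661 tested genes (box with median and quartiles, whiskers at the 5th and 95th percentiles), of the tested genes of 4 lists (points, with the median as a bar) and of the 3 tested receptors (diamonds with SE, filled where called). Ptgfr lies beyond the 95th percentile of all genes, 0.96, and Tbxa2r beyond the 5th, -1.17, with a wider SE. The place of Ptgfr rests on control spots not well above background, in a probe that entered the test through its PGE2 arrays alone.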

How the data were processed

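RNA of 4 cultures was measured with 1 single-colour Agilent array each. Per the file headers, the deposited intensity values (spot and local background medians, and a background-corrected processed intensity with its error) came from Feature Extraction 11.5.1.1, on a design with mm9 probe positions. Version 12.0.3.1 is given in the submitters' processing notes. A table of the whole series, also deposited, gives a scaled signal, used for gene names and as an alternative, and 4 further columns per sample that were not used.

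Groups came from the sample titles. For the main values the 75th percentile of each array was subtracted from log2 of its processed intensity, with the spots of a probe averaged and 158 probes with outlier flags left out. Probes well above background on both arrays of a group were kept (26101), and the brightest represented its gene. Symbols were updated by gene ID through RefSeq (GRCm38.p6; 44970 of 47700 spots with a symbol matched). PGE2 and control were compared with limma 3.58.1 in R 4.3.3 (files were read with version 1.17.8 of data.table; 2 residual and 2.15 prior degrees of freedom), Benjamini-Hochberg adjustment over all 17661 tested features and a threshold of 0.05. An exact permutation test of 2 against 2 arrays cannot go below p = 0.333, so none is given. The bound for a dim group takes, per array, the higher of the probe's own value and the dimmest spot well above background. The number of arrays limits the precision.

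Named genes are all 8 receptors. For each pathway list they are its called genes, or otherwise the 3 with the smallest p, and for other vasoactive receptors also the 3 largest rises and falls above background on all arrays. The 3 genes nearest to each tested receptor are named too. The markers and the untested ligand genes were named outside this rule, after their values were seen. Members and lists were chosen with earlier results of these data known. Equal replicate numbers are not said to mark cultures handled together, so the fit has no block. The files have no mean spot signal, so the normexp alternative used spot medians (offset 50). The limma fit alone was tested on simulated data, drawn as values of the genes already kept. The scaling, the background filter, the bounds and the motif search were not part of that test. Alternatives are given in the closing section.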

Additional observations from a re-analysis of the deposited data

How the results depend on the processing

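Of the 13 alternatives for each tested receptor, Ptgfr and Tbxa2r kept their direction in each. For Ptgfr this adds no support, since its probe was above background on both PGE2 arrays and on no control array. Ptger4 ranged from -0.38 without control replicate 1 to 1.56 without control replicate 2. The count of called receptors, 1 in the report, was 0 with normexp correction, on the authors' scaled signal, without the filter on dim probes and with an intensity trend in the variance prior (Ptgfr adjusted p = 0.0611, 0.0564, 0.214 and 0.064, limma, range over the alternatives 0.0369 to 0.214). It ranged from 0 to 1 when leaving out each replicate. With the filter for all 4 arrays no receptor was left to test. Over all genes limma called 118 in the report, 0 on the authors' scaled signal (4204 at an unadjusted p under 0.05), 0 without the filter (2685) and 54 with the filter for all 4 arrays, and from 0 to 174 when leaving out each replicate, with 0 without control replicate 1 (2711) and without control replicate 2 (2963). Of the pathway lists, 2 genes were called in the report, 1 with quantile normalization, 7 with normexp correction and 7 with the intensity trend, 5 with the mean of kept probes, 4 with every kept probe, 0 on the authors' scaled signal and 0 without the filter, and from 0 to 1 when leaving out each replicate. The cause of these differences was not tested. On the authors' scaled signal the median change of all genes was 0.23, against -0.03 in the report, so that Ptger4, at 0.85 there, is to be read against that shift.

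Control 1 minus control 2 correlated with PGE2 1 minus PGE2 2 at 0.424 across genes. With 2 pairs and no label that ties them, equal numbers were not taken as pairs. With the replicate block 172 genes were called, 88 higher and 84 lower, among them 1 receptor, Ptgfr (adjusted p = 0.0474, limma), and Tbxa2r stood at -1.63 ± 0.23 (adjusted p = 0.0771). No receptor changed its call with the block.

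None of the 14 receptor probes was above background on all 4 arrays, and the fitted change of Ptgfr rests on control spots whose error was as large as their signal. In Ptger4 and Tbxa2r the gap between the control cultures was larger than the spot errors.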

Other observations

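Of 47 listed receptor genes of other vasoactive ligands, 25 had a probe above background on at least 1 array and 17 (36.2%) were tested, where 52.5% of all genes with a symbol were tested. Limma called 0 of them, against 0.668% of all tested genes, and 8 had an unadjusted p under 0.05, against 17.8%. Their median log2 change was -0.31. The groups did not overlap, as higher, in 5 of the 17 and, as lower, in 6, beside 24% and 28.3% of all tested genes. S1pr1, a sphingosine 1-phosphate receptor gene best known from endothelium and lymphocytes, had signals of 189.7 and 312.2 in control and 1815 and 1231 with PGE2 (change 2.47 ± 0.31, adjusted p = 0.0745). Lpar1, a lysophosphatidic acid receptor gene, stood at 1.24 ± 0.22 (adjusted p = 0.114). Vipr1, the gene of a Gs-coupled receptor for vasoactive intestinal peptide, was above background on both control arrays, at 51.6 and 96.6. It was so on no PGE2 array, and was lower by an approximate bound of 2.61-fold, taken as for Ptgfr (adjusted p = 0.0595, limma). Vipr1 entered the test only through its control arrays, so a probe like it had to differ, and its p adds no support beyond the bound. Its other probe was above background nowhere.

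Ramp3, the gene of a receptor-modifying protein that partners the calcitonin receptor-like receptor, had signals of 123.5 and 105.6 in control and 462.7 and 4966 with PGE2, a change of 3.58 ± 1.19 (adjusted p = 0.253, limma), with PGE2 array 2 far above the other 3. Its relative Ramp2 stood at -1.38 ± 0.20 (adjusted p = 0.0872), near background. Of the natriuretic peptide receptors, Npr3, the clearance receptor gene, stood at -2.78 ± 0.88 (adjusted p = 0.242) and Npr2 at -0.76 ± 0.16 (adjusted p = 0.148). The alpha adrenergic receptor gene Adra1b stood at -0.66 ± 0.43 (adjusted p = 0.486).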
